A study of Mus musculus with 11 samples.

Results

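The genes described here are the Hox genes of clusters A to D. A gene was taken with every 2 kb tile of the genome that overlapped its GRCm38 span or the 2 kb on either side, and 38 of the 39 genes of the 4 clusters were analysed. These 38 genes were covered by 202 of the 1362779 tiles in the deposited table, and a tile that touched more than 1 gene (57 of them) was counted once in cluster values. The Hoxa tiles lay at chr6:52160001-52264000 (48 tiles, 10 genes), the Hoxb tiles at chr11:96192001-96372000 (54 tiles, 10 genes), the Hoxc tiles at chr15:102918001-103040000 (53 tiles, 9 genes) and the Hoxd tiles at chr2:74666001-74768000 (47 tiles, 9 genes). A gene held between 4 and 25 tiles. The long annotated spans of Hoxa3, Hoxb3 and Hoxd3 run across neighbouring Hox genes, so their values share tiles with those genes. Other close neighbours, such as Hoxb7 and Hoxb8 or Hoxd10 and Hoxd11, share tiles as well.

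The measurement was HMCP-seq, a commercial assay that pulls down pieces of genomic DNA bearing 5-hydroxymethylcytosine (5hmC). The 11 libraries came from mouse embryonic stem (ES) cells and from epiblast-like cells (EpiLC), the cells that ES cells become when they leave the naive state. Day 0 was TET_WT ES cells kept in 2i/Lif (3 libraries). Day 1 was TET_WT after 1 day towards EpiLC (2 libraries, numbered 2 and 3), and day 2 was TET_WT after 2 days (3 libraries). The last group was DNMT_WT EpiLC at day 2 (3 libraries). TET_WT is the wild-type parent of a line without Tet1, Tet2 and Tet3, and DNMT_WT the wild-type parent of a line without Dnmt1, Dnmt3a and Dnmt3b, so every library here was wild type for those 6 genes. Each group is a single cell line, and nothing in the labels says that replicates were separate cultures, so p-values measure only the spread between these libraries.

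Hox genes encode homeodomain transcription factors that give cells their position along the head-to-tail axis of the embryo. They sit in clusters in the order in which they are used, with low-numbered (anterior) genes at the end that opens first and high-numbered (posterior) genes at the other. In pluripotent cells the clusters are silent and held by Polycomb complexes, and their CpG islands carry little DNA methylation. 5hmC is made from 5-methylcytosine by the TET enzymes, and it marks DNA where methyl groups are being placed and oxidised. It is not a measure of expression, which was not analysed here.

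The sequences below are those just upstream of the start of the pair of Hox genes whose start tile held the most 5hmC over all libraries (Hoxa7 and Hoxd12) and of the pair whose start tile held the least (Hoxb4 and Hoxd11), among the 22 members found in a RefSeq promoter table of GRCm38.p6. Each runs 5′ to 3′ on the gene's strand over the 250 bases before the start, with CG dinucleotides, the sites at which 5hmC is mostly found, in capitals. Hoxa7 is at chr6:52218574-52218823 on the minus strand, and the others are on the plus strand, Hoxd12 at chr2:74674763-74675012, Hoxb4 at chr11:96318017-96318266 and Hoxd11 at chr2:74679308-74679557.
Hoxa7: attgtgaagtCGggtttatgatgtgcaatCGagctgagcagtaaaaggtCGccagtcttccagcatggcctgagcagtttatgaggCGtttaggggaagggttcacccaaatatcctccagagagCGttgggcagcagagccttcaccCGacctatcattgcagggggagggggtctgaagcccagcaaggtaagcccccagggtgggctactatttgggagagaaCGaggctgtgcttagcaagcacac
Hoxd12: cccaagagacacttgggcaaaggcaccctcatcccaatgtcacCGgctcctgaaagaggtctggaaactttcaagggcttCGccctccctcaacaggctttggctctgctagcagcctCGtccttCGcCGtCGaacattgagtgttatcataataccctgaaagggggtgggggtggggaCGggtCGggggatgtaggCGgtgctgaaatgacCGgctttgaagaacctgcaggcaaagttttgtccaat
Hoxb4: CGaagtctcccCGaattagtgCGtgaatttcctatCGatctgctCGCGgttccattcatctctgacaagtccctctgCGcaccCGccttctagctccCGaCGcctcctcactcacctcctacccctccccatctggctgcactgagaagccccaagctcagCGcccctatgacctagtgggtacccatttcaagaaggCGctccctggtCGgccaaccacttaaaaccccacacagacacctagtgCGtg
Hoxd11: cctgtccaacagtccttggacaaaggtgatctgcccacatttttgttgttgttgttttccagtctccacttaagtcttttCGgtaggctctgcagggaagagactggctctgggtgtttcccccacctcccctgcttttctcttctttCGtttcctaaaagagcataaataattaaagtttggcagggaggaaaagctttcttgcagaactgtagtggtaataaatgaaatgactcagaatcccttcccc
The Hoxa7 stretch holds 7 CG dinucleotides, that of Hoxd12 10, that of Hoxb4 14 and that of Hoxd11 2. The pair high in 5hmC and the pair low in it are thus not set apart by the number of CG sites in this window.

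Reads recovered from the deposited values ran from 7342015 (day 1 replicate 2) to 51604034 (day 0 replicate 1) per library. Between 10.3% and 31.8% of all tiles held no read, but of the Hox tiles at most 0.99%, except in day 1 replicate 2, where 6.93% were empty. Over all genes, day 0 replicate 2 stood somewhat apart from the other day 0 libraries (Pearson's r across genes of 0.935 with each, against 0.957 between replicates 1 and 3), and main results that it moves are also given without it. The day 2 pairs of TET_WT reached 0.981 and those of DNMT_WT 0.978 to 0.979. Gene values below are the mean log2 RPKM (reads in a tile scaled to its length and to the read total of the library) over the tiles of a gene. RPKM is relative to the total of its own library, so a rise or fall of 5hmC over the whole genome would not show, and more cells with 5hmC at a site cannot be told apart from more 5hmC there per cell.

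The 4 clusters gained reads as TET_WT cells reached day 2, and they held the most in DNMT_WT. All 202 Hox tiles together received 240, 273 and 232 RPM (reads scaled to a fixed library total) in day 0 replicates 1, 2 and 3, and 275 and 276 at day 1. They received 356, 374 and 369 at day 2, and 762, 753 and 752 in DNMT_WT. Day 0 and day 1 were close to each other, the 3 day 2 libraries all lay above them, and the 3 DNMT_WT libraries lay far above day 2.

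**Figure D1:**
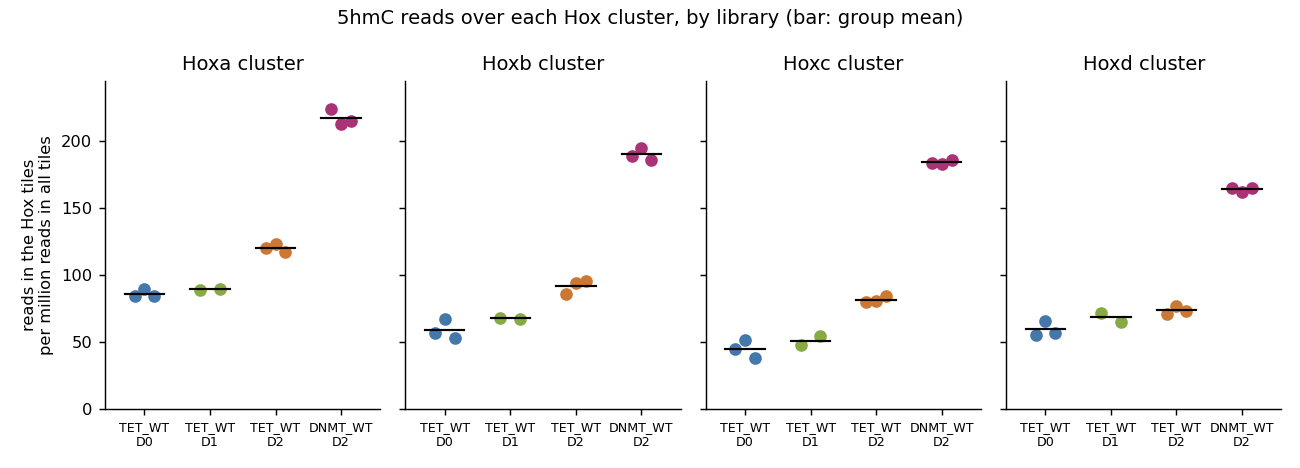
RPM (reads scaled to a fixed total over all tiles) that fell in the Hox tiles of each cluster (vertical axis, linear) in every library (points), by group (horizontal axis), with a bar at the group mean. In all 4 clusters the DNMT_WT points lie above every TET_WT point, and the day 2 points lie above the day 0 points, in Hoxd by the smallest distance.

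The clusters did not gain alike. Hoxc received 44.4, 51.5 and 38.1 RPM at day 0 and 80.0, 80.5 and 83.9 at day 2, the largest rise in proportion. Hoxd received 55.4, 65.5 and 56.5 at day 0 and 70.8, 76.9 and 73.0 at day 2, the smallest. Hoxa went from 83.8, 89.1 and 84.2 to 120, 123 and 117, and Hoxb from 56.7, 66.7 and 53.1 to 85.8, 94.0 and 95.6. No day 0 library reached a day 2 library in any cluster. In DNMT_WT every cluster was higher again, with 224, 213 and 215 RPM in Hoxa, 189, 195 and 186 in Hoxb, 184, 183 and 186 in Hoxc, and 165, 162 and 165 in Hoxd.

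In naive ES cells the Hox genes as a family lay close to the median gene. Their median at day 0 was -0.23 log2 RPKM against -0.31 over the 20717 genes tested, and 20 of the 38 lay above the median of all genes. At day 1 the median was -0.07 against -0.29, with 21 above. By day 2 it was 0.50 against -0.18, with 29 above, and in DNMT_WT 1.71 against -0.04, with all 38 above.

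Within the clusters a few genes were rich in 5hmC from the start. Hoxa7, a mid-cluster gene, was at 1.63, 1.79 and 1.75 at day 0, percentile 98.7 of all genes, and it had the highest mean over all libraries in Hoxa (2.14). Its neighbours Hoxa6 and Hoxa9 stood at percentiles 95.6 and 95.3. Hoxb5 led Hoxb (mean 1.73, percentile 89.8 at day 0), Hoxc6 led Hoxc (mean 0.93) and Hoxd4 led Hoxd (mean 1.20). The lowest means over all libraries were those of Hoxa13 (-0.22), Hoxb8 (-0.29), Hoxc13 (-0.68) and Hoxd13 (-0.32), of which all but Hoxb8 are the most posterior genes of their cluster, used last, at the tail end and in the limbs and genitals. At day 0, Hoxc12 lay at percentile 21.1 of all genes, Hoxc13 at 25.4 and Hoxd13 at 30.2. In DNMT_WT the mid-cluster Hoxa genes ranked above nearly all other genes. Hoxa6, Hoxa7 and Hoxa9 stood at percentiles 99.86, 99.95 and 99.96, Hoxa2 at 99.6, and Hoxd13 at 86.4.

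**Figure D2:**
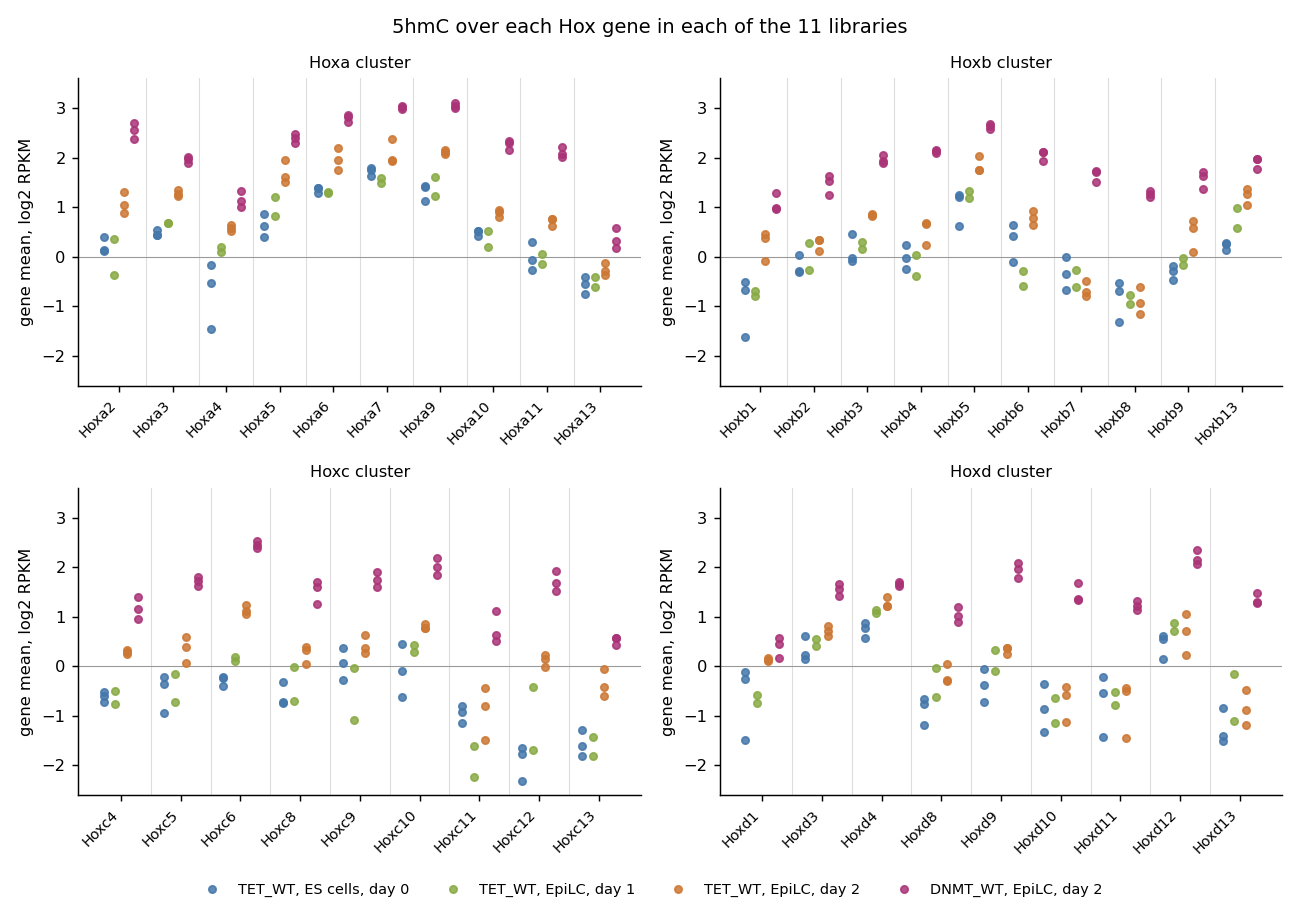
Mean log2 RPKM of each Hox gene (vertical axis) in each of the 11 libraries (points, coloured by group), with genes along the horizontal axis by paralogue number in 4 panels, 1 per cluster. Hoxa7 is high in every library, Hoxc12 and Hoxc13 are low at day 0, and in DNMT_WT no gene lies below 0.16.

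Between day 0 and day 2 of TET_WT, 5hmC rose over 25 of the 38 Hox genes and fell over none (limma on all 20717 genes, Benjamini-Hochberg adjusted p under 0.05). Over all genes, 15.3% were called higher and 2.51% lower. The median difference was 0.72 log2 over the Hox genes and 0.09 over all genes. The gain covered 9 of 10 Hoxa genes, 6 of 10 Hoxb genes, 7 of 9 Hoxc genes and 3 of 9 Hoxd genes. By role, it covered 8 of 11 anterior genes (paralogue groups 1 to 4, hindbrain and neck), 8 of 11 central genes (groups 5 to 8, trunk) and 9 of 16 posterior genes (groups 9 to 13, lower trunk, tail and limbs).

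The largest gain was in Hoxc12 (chr15:102936826-102938609), a posterior gene. It was at -2.31, -1.77 and -1.65 at day 0, at -1.69 and -0.42 at day 1, and at 0.23, 0.15 and -0.02 at day 2. All day 2 libraries lay above all earlier ones, and the day 1 pair was wide apart. The difference from day 0 was 2.03 ± 0.27 (SE, limma adjusted p = 0.000276). Its neighbour Hoxc13 (chr15:102921131-102928814) rose from -1.29, -1.61 and -1.81 to -0.42, -0.06 and -0.60, a difference of 1.21 ± 0.19 (limma adjusted p = 0.000949). These genes were among the lowest of all Hox genes at day 0.

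Hoxc6, a trunk gene at chr15:102998226-103011882, gave the smallest p of the family. It was at -0.24, -0.22 and -0.40 at day 0, at 0.10 and 0.19 at day 1, and at 1.11, 1.06 and 1.23 at day 2. The 3 time points did not overlap, and most of the gain fell between day 1 and day 2. The difference from day 0 was 1.42 ± 0.09 (limma adjusted p = 2.34e-06). Hoxc4 (0.90 ± 0.13, limma adjusted p = 0.000521), Hoxc5 (0.85, 0.0105), Hoxc8 (0.84, 0.00749) and Hoxc10 (0.89, 0.00782) rose as well. Hoxc9 (0.37, adjusted p = 0.327) and Hoxc11 (0.04, adjusted p = 0.949) did not pass the test.

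In Hoxa the gain was broad and took in all but the most posterior gene. Hoxa3 (chr6:52169059-52213067) was at 0.54, 0.44 and 0.44 at day 0, at 0.69 and 0.68 at day 1, and at 1.27, 1.35 and 1.23 at day 2. The difference from day 0 was 0.81 ± 0.08 (limma adjusted p = 4.64e-05), with no overlap of groups. Hoxa5, a gene of the neck and lung region, rose from 0.62, 0.40 and 0.85 to 1.51, 1.95 and 1.60 (1.06 ± 0.14, limma adjusted p = 0.00033). Hoxa4 had the largest difference of the cluster (1.31 ± 0.24, limma adjusted p = 0.00235). It was at -0.53, -1.46 and -0.17 at day 0 and at 0.58, 0.53 and 0.64 at day 2, and without the low replicate 2 the difference was 0.94 (adjusted p = 0.000511). Hoxa2 (0.86, adjusted p = 0.00373), Hoxa9 (0.79, 0.000314), Hoxa11 (0.73, 0.00225), Hoxa6 (0.61, 0.00139), Hoxa10 (0.41, 0.0144) and Hoxa7 (0.37, 0.0341) were called higher too. Hoxa13, the limb and genital gene at the posterior end, was the exception (0.31, limma adjusted p = 0.195).

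In Hoxb 6 genes gained and 4 were not called. Hoxb13 (chr11:96194316-96196610), which stands far from the other Hoxb genes, was at 0.28, 0.14 and 0.26 at day 0, at 0.59 and 0.98 at day 1, and at 1.04, 1.37 and 1.26 at day 2 (0.998 ± 0.12, limma adjusted p = 0.000155). All libraries of a time point lay above those of the one before. Hoxb1, a hindbrain gene at the other end, went from -0.52, -1.61 and -0.67 to -0.08, 0.46 and 0.37 (1.18 ± 0.24, limma adjusted p = 0.00468), and by 0.84 (adjusted p = 0.00366) without day 0 replicate 2. Hoxb5 (0.82, adjusted p = 0.00207), Hoxb9 (0.77, 0.00449), Hoxb3 (0.73, 0.00202) and Hoxb4 (0.54, 0.0291) were called higher as well. Of the genes without a call, Hoxb8 was at -1.33, -0.53 and -0.69 at day 0 and at -1.15, -0.94 and -0.62 at day 2, and Hoxb7 at -0.67, -0.01 and -0.36 and then at -0.80, -0.72 and -0.49. The groups of both genes overlapped, and neither passed the test (Hoxb8 -0.05, adjusted p = 0.917, Hoxb7 -0.33, adjusted p = 0.222). With all libraries thinned to the reads of the shallowest, Hoxb7 was called lower at day 2 (-0.60, adjusted p = 0.0308). Without day 0 replicate 2 the differences were 0.11 for Hoxb8 (adjusted p = 0.711) and -0.16 for Hoxb7 (0.445), a change of sign for Hoxb8. Hoxb2 (0.44, adjusted p = 0.0773) and Hoxb6 (0.46, 0.0744) did not pass either.

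Hoxd changed least. Only Hoxd4, Hoxd8 and the posterior Hoxd9 were called higher, by 0.53 (limma adjusted p = 0.00228), 0.69 (0.0208) and 0.71 (0.00891). The other posterior genes, Hoxd10 to Hoxd13, which pattern the limbs, showed no call. Their differences were 0.13, -0.07, 0.23 and 0.40, with limma adjusted p of 0.806, 0.928, 0.473 and 0.337. Without day 0 replicate 2 they differed by 0.38, 0.19, 0.28 and 0.61, again with no call (adjusted p of 0.253, 0.686, 0.351 and 0.102), so that the sign for Hoxd11 depended on that library. Hoxd11 was at -0.54, -0.22 and -1.42 at day 0 and at -1.45, -0.43 and -0.50 at day 2, 2 overlapping groups. Hoxd3 (0.39, adjusted p = 0.0527) was called without day 0 replicate 2 (0.53, adjusted p = 0.00266). Hoxd1 (0.75, adjusted p = 0.0851) rested on the -1.49 of that replicate and stood at 0.31 without it (adjusted p = 0.0920).

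The day 0 and day 2 libraries did not overlap for 28 of the 38 genes, all higher at day 2, where 23.6% of all genes separated in that direction and 7.95% in the other. Of single tiles, 69 of 202 (34.2%) were called higher and none lower, against 5.33% and 2.68% of the 1183891 tiles tested, and neighbouring tiles are not independent. The tile with the largest gain lay just beyond Hoxc13, at chr15:102930001-102932000, at -2.30, -2.10 and -2.41 at day 0 and at 1.16, 1.58 and 1.06 at day 2. The next largest gains were at chr15:102934001-102936000 beside Hoxc12 (3.15) and at chr2:74698001-74700000 within Hoxd9 (3.07). Centring each library on its median tile left 14 of 38 genes called, 13 of them among the 25. Leaving out 1 library ended the calls of Hoxa7, Hoxa10, Hoxb4, Hoxc5 or Hoxd8, depending on the library, with adjusted p up to 0.147, 0.0653, 0.116, 0.0547 and 0.0999.

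**Figure D3:**
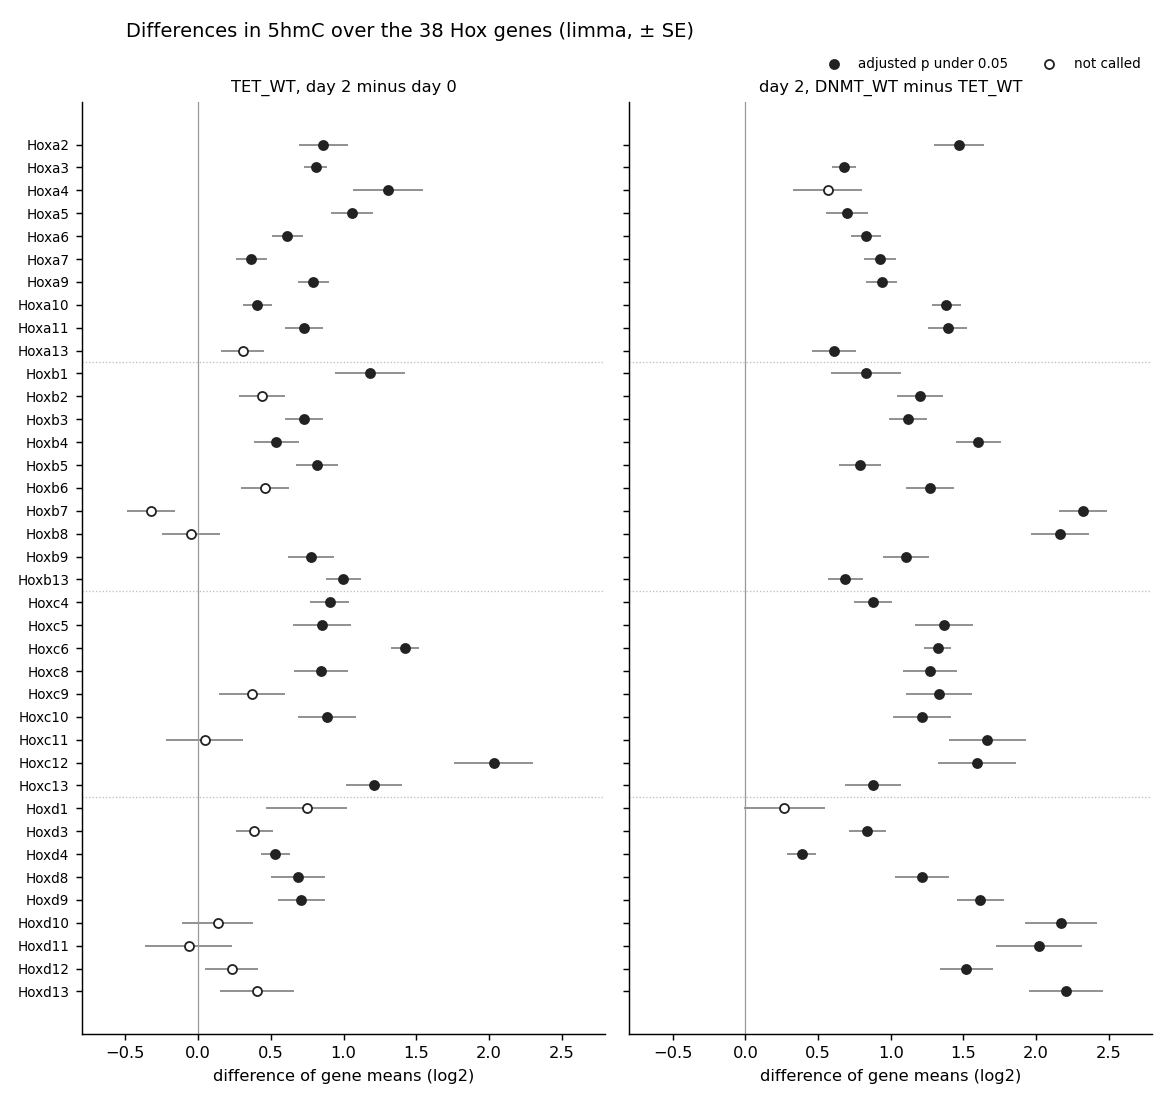
Difference in mean log2 RPKM for each Hox gene with its standard error, day 2 against day 0 of TET_WT and DNMT_WT against TET_WT at day 2, with genes in paralogue order within clusters and filled points for genes called by limma. In the first comparison 25 points are filled and those of Hoxd10 to Hoxd13 are open. In the second 36 are filled and posterior Hoxd genes stand among the highest.

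At day 1 no Hox gene was called against day 0, in a comparison with 2 day 1 libraries that called no gene at all. That is 0 of 38 Hox genes and 0% of all genes in limma's test, and voom on the recovered reads called no Hox gene either. The median difference was 0.11 over Hox genes and 0.09 over all genes, with 23 genes positive and 15 negative. The highest differences were in Hoxa4 (0.87, limma adjusted p = 0.215), Hoxc12 (0.85, 0.280) and Hoxd13 (0.62, 0.394), and the lowest in Hoxc11 (-0.97, 0.213), Hoxb6 (-0.76, 0.134) and Hoxc9 (-0.61, 0.356). These sizes leaned on single libraries. Hoxa4 stood at 0.50 and Hoxd13 at 0.83 without day 0 replicate 2, and Hoxc12 at 1.49, Hoxd13 at 0.16 and Hoxc9 at -0.10 without day 1 replicate 2, none of them called. The libraries of day 0 and day 1 did not overlap for 8 genes higher at day 1 (13.4% of all genes) and 3 lower (8.69%). Hoxc6 was called without day 0 replicate 2 (0.47, adjusted p = 0.0476).

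A few tiles changed in either direction by day 1. Of the 202, 7 were called higher (0.601% of all tiles) and 3 lower (0.409%). The tile with the largest loss, chr11:96294001-96296000 in Hoxb6, was at -1.30, -1.10 and -1.41 at day 0, at -2.66 and -4.72 at day 1 and at -0.43, -0.95 and 0.14 at day 2. The day 1 values rest on 1 and 0 reads, so the size of this loss rests on the value given to an empty tile. Day 2 did not pass the test against day 0 (0.86, adjusted p = 0.449). A tile of Hoxc4 at chr15:103020001-103022000 (-1.61) and 1 shared by Hoxa3 and Hoxa7 at chr6:52214001-52216000 (-1.12) were the other losses. The gains were led by the tile beside Hoxc12 named above (1.51), by chr15:103006001-103008000 in Hoxc6 (1.39) and by chr15:103026001-103028000 in Hoxc4 (1.10). Day 1 replicate 2 was the shallowest library, and the number of called tiles moved between 5 and 19 as 1 library at a time was left out. With a common floor for empty tiles, or at equal depth, 1 of these tiles was called.

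Calls appeared again between day 1 and day 2, a comparison that shares its libraries with those above. Here 19 genes were called higher and none lower, against 8.99% and 0.599% of all genes, and the median difference was 0.59 against 0.00. Hoxa gave 8 of 10, Hoxb 5 of 10, Hoxc 6 of 9 and Hoxd none of 9. Groups did not overlap for 29 genes (all higher at day 2, where 28.2% of all genes separated in that direction and 22.1% in the other). Hoxb6, a trunk gene, was at 0.65, 0.43 and -0.10 at day 0, at -0.28 and -0.58 at day 1 and at 0.65, 0.78 and 0.93 at day 2. Its day 1 libraries were the lowest of all, and day 2 lay 1.22 ± 0.18 above them (limma adjusted p = 0.00153). Hoxc13 (1.26 ± 0.22, limma adjusted p = 0.00323), Hoxa2 (1.09 ± 0.19, 0.00371, and 0.72 with adjusted p = 0.0435 without day 1 replicate 2), Hoxc6 (0.99 ± 0.10, 0.000231) and Hoxc4 (0.92, 0.00208) followed. Further Hoxa calls were Hoxa11 (0.76, limma adjusted p = 0.00666), Hoxa9 (0.70, 0.00328), Hoxa5 (0.66, 0.0201), Hoxa6 (0.66, 0.00371), Hoxa3 (0.60, 0.00172), Hoxa7 (0.55, 0.0129) and Hoxa10 (0.53, 0.0117). In Hoxb, Hoxb4 (0.70, 0.0225), Hoxb3 (0.61, 0.0191) and Hoxb5 (0.59, 0.0398) were called, and in Hoxc also Hoxc5 (0.78, 0.0449).

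The calls of this comparison were the least firm, with 2 of 19 genes called under every alternative. One of its groups had 2 libraries, and the cause of the lost calls was not tested. Hoxc12 rose by 1.18 (limma adjusted p = 0.0259), but by 0.55 (adjusted p = 0.314) without day 1 replicate 2 and by 1.82 (0.00261) without day 1 replicate 3. Hoxc9 (0.98, adjusted p = 0.0281) stood at 0.47 (0.344) and 1.50 (0.00352) in the same way, and Hoxb1 (0.99, adjusted p = 0.0358) lost its call without either day 1 library, without day 2 replicate 2 or 3, and without DNMT_WT replicate 2 or 3 (adjusted p up to 0.188). Hoxb5 kept its call in 9 of 22 alternatives and Hoxc5 in 10 of 21, and each lost it on leaving out single libraries (adjusted p up to 0.243 and 0.264). Leaving out day 1 replicate 2 also ended the calls of Hoxa5 (adjusted p = 0.232), Hoxa7 (0.0614), Hoxa10 (0.142), Hoxa11 (0.0712) and Hoxb3 (0.152), and leaving out day 1 replicate 3 that of Hoxb4 (0.171). In all, 11 genes were called without day 1 replicate 2, and without day 2 replicate 2, 12. Centring on medians left 5 genes, and so did voom on recovered reads. Of tiles, 37 were called higher and none lower, against 2.41% and 0.551% of all tiles. The largest gain was in the tile at chr11:96370001-96372000 beside Hoxb1, at -2.81 and -3.56 at day 1 (0 and 2 reads) and at 0.31, 0.40 and 0.69 at day 2. The Hoxb6 tile named above (3.28, on 1 and 0 reads at day 1) and chr15:102998001-103000000 in Hoxc6 (2.96, on 2 and 2 reads) followed, and the sizes of these gains rest on those few reads and on the value given to an empty tile.

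At day 2, 5hmC was higher in DNMT_WT than in TET_WT over 36 of the 38 Hox genes and lower over none, where 14.9% of all genes were called higher and 4.07% lower. The median difference was 1.21 log2 over the Hox genes and 0.10 over all genes. All 38 genes lay higher in every DNMT_WT library than in any TET_WT day 2 library, as 32.8% of all genes did, with 15.5% lower in every one. The calls took in 9 of 10 Hoxa, 10 of 10 Hoxb, 9 of 9 Hoxc and 8 of 9 Hoxd genes. These groups differ in cell line, and line, culture and sequencing batch cannot be told apart. Centring on medians moved the median of all genes from 0.10 to 0.31 and that of the Hox genes to 1.43, again with 36 called.

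The 6 genes with the largest gaps, Hoxb7, Hoxd13, Hoxd10, Hoxb8, Hoxd11 and Hoxc11, had no call between day 0 and day 2 of TET_WT, a comparison that uses the same TET_WT day 2 libraries. Hoxb7 and Hoxb8 share tiles with each other, and so do Hoxd10 and Hoxd11, so these 6 are not separate measurements. Hoxb7 (chr11:96285604-96290163) was at -0.80, -0.72 and -0.49 in TET_WT at day 2 and at 1.52, 1.70 and 1.73 in DNMT_WT. The gap of 2.32 ± 0.17 (limma adjusted p = 1.95e-05) was the largest of the family. Its neighbour Hoxb8 was at -1.15, -0.94 and -0.62 against 1.27, 1.22 and 1.32 (2.17 ± 0.20, limma adjusted p = 4.96e-05). The libraries of a line lay close together, and no TET_WT library of any day reached those of DNMT_WT in either gene.

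The posterior Hoxd genes stood apart between the lines as well. Hoxd13 (chr2:74668225-74671603), the digit gene, was at -1.20, -0.88 and -0.49 in TET_WT and at 1.48, 1.29 and 1.28 in DNMT_WT (2.21 ± 0.25, limma adjusted p = 0.00018). Hoxd10 was at -1.12, -0.59 and -0.42 against 1.68, 1.33 and 1.37 (2.17 ± 0.25, limma adjusted p = 0.000174), and Hoxd11 at -1.45, -0.43 and -0.50 against 1.33, 1.23 and 1.13 (2.02 ± 0.30, limma adjusted p = 0.000837). In all 3 genes the lowest DNMT_WT library lay more than 1 log2 above the highest TET_WT library. Hoxd12 was at 0.23, 1.06 and 0.71 against 2.14, 2.35 and 2.07 (1.52, adjusted p = 0.000236) and Hoxd9 stood 1.62 higher (adjusted p = 8.43e-05).

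In Hoxc, Hoxc11 (1.67, limma adjusted p = 0.00144) and Hoxc12 (1.59, 0.00196) differed most, followed by Hoxc5 (1.37, 0.000845), Hoxc9 (1.33, 0.00209) and Hoxc6 (1.32, 1.95e-05). Hoxc11 had not gained in TET_WT, while Hoxc6 and Hoxc12 had. Hoxc6 was at 1.11, 1.06 and 1.23 in TET_WT at day 2 and at 2.45, 2.39 and 2.54 in DNMT_WT. In Hoxa the largest gaps were those of Hoxa2 (1.47, adjusted p = 0.000193), Hoxa11 (1.39, 5.98e-05) and Hoxa10 (1.38, 1.95e-05). Hoxa2, a hindbrain and branchial arch gene, was at 1.05, 1.30 and 0.89 in TET_WT and at 2.69, 2.38 and 2.57 in DNMT_WT. Hoxb4, a gene known for its part in blood stem cells, was at 0.69, 0.66 and 0.24 against 2.13, 2.16 and 2.10 (1.60, adjusted p = 6.65e-05).

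Among the remaining calls in Hoxa were Hoxa9 (0.94, limma adjusted p = 0.00018), Hoxa7 (0.93, 0.000205), Hoxa6 (0.83, 0.000299), Hoxa5 (0.70, 0.00594) and Hoxa3 (0.68, 0.00025). Hoxa7, already the richest Hox gene at day 0, went from 2.38, 1.94 and 1.95 in TET_WT at day 2 to 2.98, 3.02 and 3.05, the highest Hox values together with those of Hoxa9. In Hoxb the remaining calls were Hoxb6 (1.27, limma adjusted p = 0.000359), Hoxb2 (1.20, 0.000428), Hoxb3 (1.12, 0.000195), Hoxb9 (1.11, 0.000706), Hoxb5 (0.79, 0.0033) and Hoxb13 (0.69, 0.00246). In Hoxc, Hoxc8, Hoxc10, Hoxc4 and Hoxc13 differed by 1.27, 1.22, 0.88 and 0.88, and in Hoxd, Hoxd8 and Hoxd3 by 1.21 and 0.84.

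The 2 genes without a call were anterior. Hoxd1 was at 0.12, 0.16 and 0.11 in TET_WT and at 0.45, 0.16 and 0.58 in DNMT_WT, a difference of 0.27 ± 0.28 (95% interval -0.33 to 0.87, limma adjusted p = 0.563). Hoxa4 was at 0.58, 0.53 and 0.64 against 0.995, 1.13 and 1.32, a difference of 0.57 ± 0.24 (95% interval 0.05 to 1.08, limma adjusted p = 0.121). Without day 0 replicate 2, the lowest library for this gene, Hoxa4 was called (adjusted p = 0.00481). The smallest called differences were Hoxd4 (0.39, adjusted p = 0.0153) and Hoxa13 (0.61, 0.0133). With 1 library left out, the adjusted p rose to at most 0.0691 for Hoxd4, 0.0678 for Hoxa13 and 0.135 for Hoxb1 (0.83, adjusted p = 0.0306).

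Of the tiles, 117 of 202 (57.9%) were called higher in DNMT_WT and none lower, where 1% of all tiles were higher and 2.24% lower. The largest difference lay within the annotated span of Hoxb8, at chr11:96282001-96284000, in a tile that also counts for Hoxb7 through its added 2 kb. This tile was at -4.60, -2.54 and -4.71 in TET_WT at day 2, on 1, 3 and 0 reads, and at 0.13, -0.24 and -0.50 in DNMT_WT. The adjoining tile (chr11:96284001-96286000) differed by 3.43, and the tile at the start of Hoxb4 (chr11:96318001-96320000) by 3.04. When all libraries were thinned to the reads of the shallowest, 8 of 202 tiles were called. Of the genes 32 of 38 were called in that way, 31 of them among the 36.

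**Figure D4:**
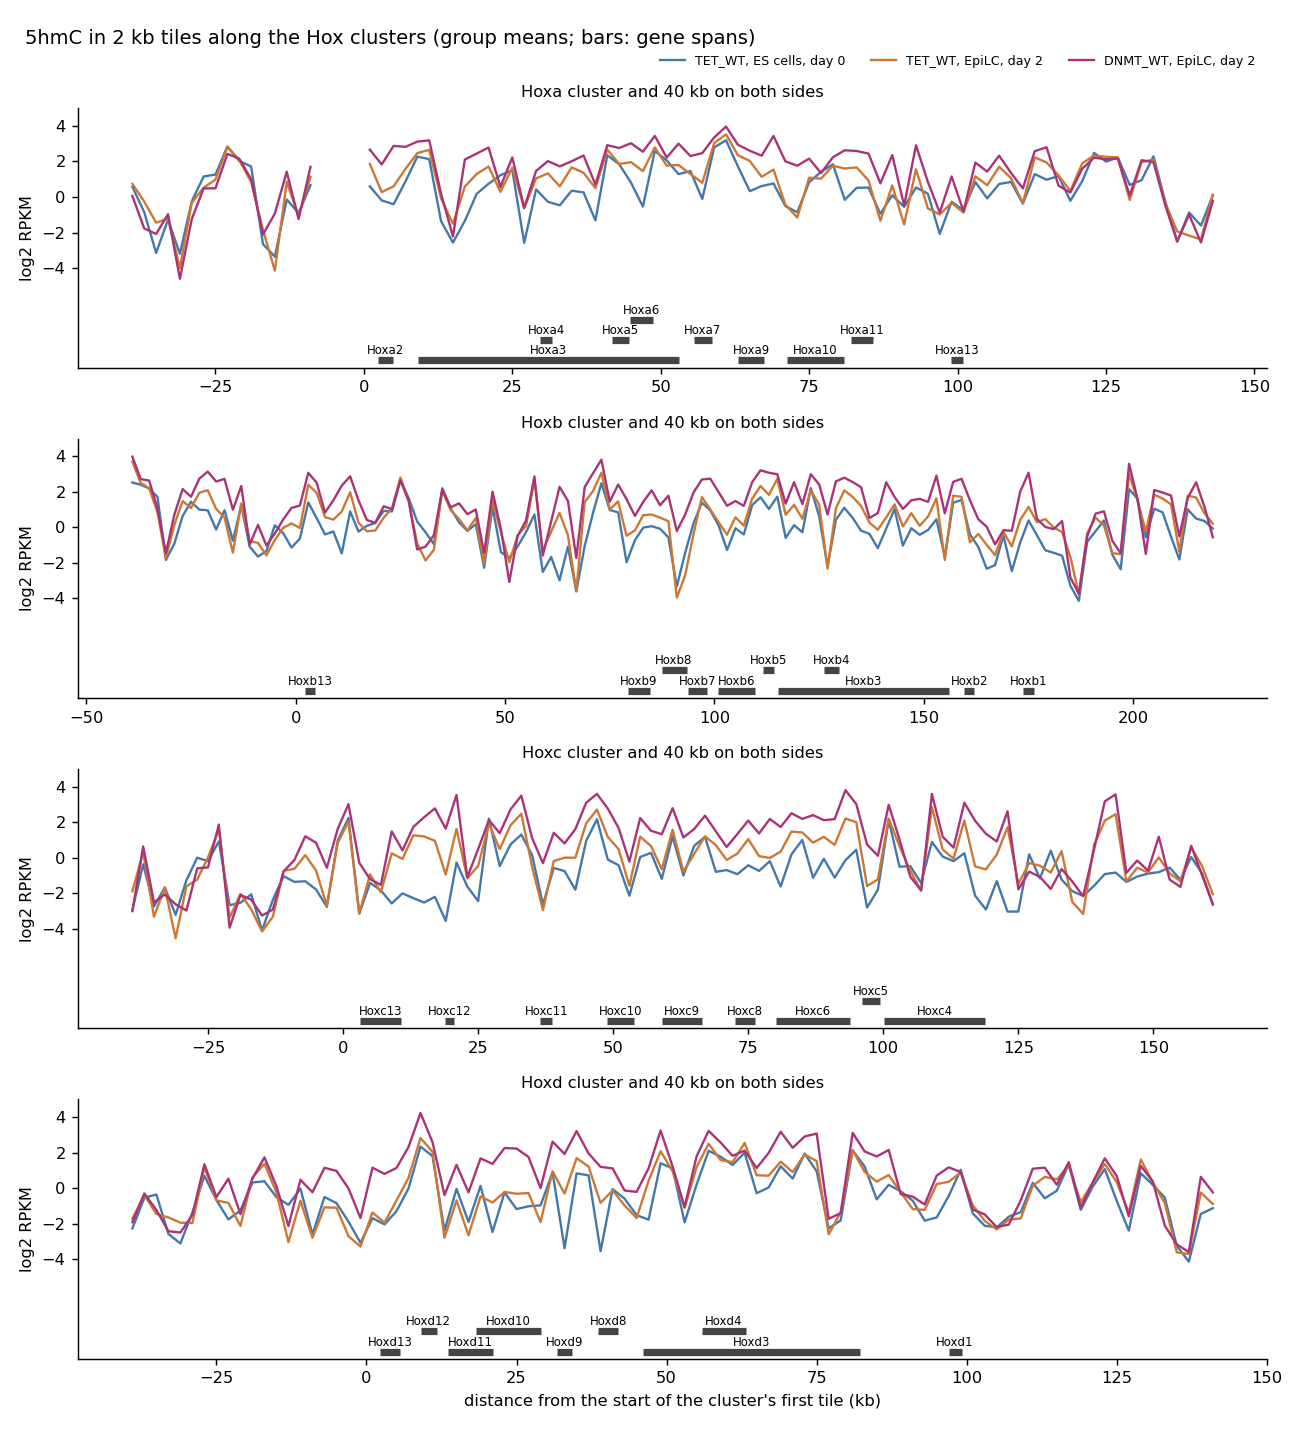
Group mean of log2 RPKM in each 2 kb Hox tile (vertical axis) along the 4 clusters (horizontal axis, distance in kb from the first tile), for day 0 and day 2 of TET_WT and day 2 of DNMT_WT, with bars for the gene spans. The DNMT_WT line runs above TET_WT over most of each cluster, and the TET_WT lines separate over Hoxc and Hoxa more than over the posterior part of Hoxd.

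Position along the clusters went with the differences in some clusters and not in others. Over the TET_WT time course the gain from day 0 to day 2 was smaller towards the posterior end of Hoxa (Spearman's rho of paralogue number with the difference -0.75, n = 10 genes). The value was -0.57 in Hoxd (n = 9), -0.10 in Hoxb and 0.12 in Hoxc. That of Hoxd leaned on day 0 replicate 2, without which Hoxd1 gained less and Hoxd10 to Hoxd13 more, as given above. For DNMT_WT against TET_WT the relation in Hoxd ran the other way (0.87), and the values in Hoxa, Hoxb and Hoxc were 0.09, -0.01 and 0.10. These are descriptions, since neighbouring genes share tiles and both comparisons use the same TET_WT day 2 libraries. The median gap between the lines was 0.84 over anterior, 1.27 over central and 1.39 over posterior genes. Called were 9 of 11 anterior, 11 of 11 central and 16 of 16 posterior genes. These medians pool the 4 clusters, which differed in rho as given above.

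Pooled over the 4 clusters, posterior genes (groups 9 to 13) held less 5hmC than anterior genes (groups 1 to 4) in TET_WT, except in day 0 replicate 2. In DNMT_WT they did not. The posterior mean minus the anterior mean was -0.34, 0.01 and -0.48 at day 0, -0.29 and -0.31 at day 1, and -0.54, -0.42 and -0.28 at day 2. In DNMT_WT it was 0.15, 0.08 and 0.03. The 3 DNMT_WT libraries lay above all TET_WT libraries, and the difference from TET_WT at day 2 was 0.50 (exact permutation test over libraries, two-sided, p = 0.1, the smallest that 3 against 3 can give). Between day 0 and day 2 of TET_WT it was -0.14 (exact permutation p = 0.5), and -0.0044 without day 0 replicate 2. On average, posterior genes stood at -0.38, -0.26, 0.24 and 1.64 log2 RPKM in day 0, day 1, day 2 and DNMT_WT, and anterior genes at -0.11, 0.04, 0.66 and 1.55. The clusters are not evenly spread over these sets, and Hoxc, the lowest at day 0, gave only Hoxc4 to the anterior genes. Within clusters, Spearman's rho of paralogue number with the day 0 level was -0.02 in Hoxa, 0.13 in Hoxb, -0.47 in Hoxc and -0.37 in Hoxd. At day 2 of TET_WT it was -0.22, 0.07, -0.55 and -0.57, and in DNMT_WT -0.12, 0.08, -0.35 and 0.27.

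Cluster means were taken over tiles. The Hoxc mean over its tiles was -0.72 ± 0.16 (SD, n = 3) at day 0, -0.68 ± 0.11 (n = 2) at day 1, 0.28 ± 0.05 (n = 3) at day 2 and 1.47 ± 0.03 (n = 3) in DNMT_WT. The Hoxd mean was -0.23 ± 0.22, -0.01 ± 0.09, 0.22 ± 0.13 and 1.49 ± 0.02, so that Hoxd had the smallest gain over the TET_WT course (0.44 against 0.99 in Hoxc, 0.66 in Hoxa and 0.65 in Hoxb) and the largest gap between lines (1.27 against 1.20, 0.91 and 1.21). In each of these 8 comparisons the groups did not overlap, and the exact permutation p was 0.1, the smallest possible. The differences among clusters were not tested. From day 0 to day 1 the clusters differed by 0.08 (Hoxa), 0.05 (Hoxb), 0.03 (Hoxc) and 0.22 (Hoxd), with exact permutation p of 0.2, 0.6, 1 and 0.4.

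The rise was set against the DNA just outside the clusters, measured in tiles within 100 kb beyond the outermost Hox tiles. Over the 4 clusters, each weighted equally, cluster minus flank was 0.28, 0.83 and 0.08 at day 0, 0.40 and 0.49 at day 1, 0.88, 0.92 and 0.90 at day 2, and 1.84, 1.90 and 1.87 in DNMT_WT. Day 2 lay above day 0 by 0.50 (exact permutation p = 0.1) and by 0.72 without day 0 replicate 2, whose Hoxd flank stood at -2.34. DNMT_WT lay above TET_WT by 0.97 (exact permutation p = 0.1). In both comparisons every library of the higher group lay above every library of the lower one.

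Hoxb was the exception in the TET_WT course. Its cluster minus flank was -0.11, 0.05 and -0.23 at day 0 and -0.03, 0.01 and -0.00 at day 2, 2 groups that overlap. Its flank had itself gone from -0.06, -0.06 and 0.04 to 0.45, 0.54 and 0.61, a rise slightly below that of the cluster. In DNMT_WT the Hoxb cluster stood 0.98, 1.08 and 0.94 above its flank. Hoxc went from 0.14, 0.64 and -0.14 at day 0 to 1.06, 0.99 and 1.01 at day 2, and Hoxa from -0.05, 0.26 and -0.06 to 0.81, 0.78 and 0.72, without overlap. Hoxd stood above its flank in all groups, at 1.16, 2.36 and 0.77 at day 0, at 1.68, 1.92 and 1.86 at day 2 and at 2.70, 2.76 and 2.89 in DNMT_WT, with overlap between the first pair.

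**Figure D5:**
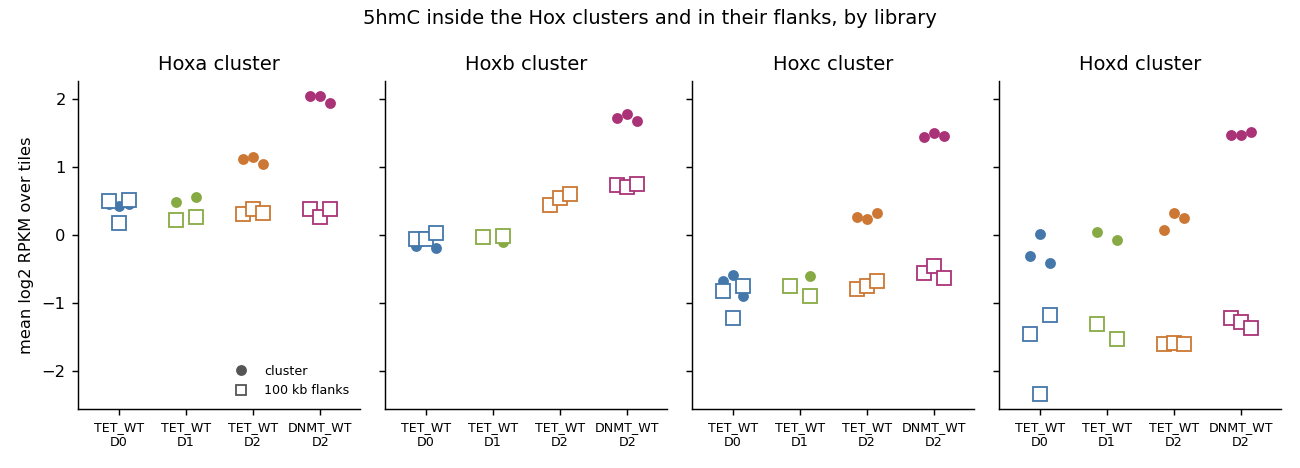
Mean log2 RPKM over the Hox tiles of each cluster (circles) and over the tiles within 100 kb outside it (squares) in each library, by group, in 4 panels. In Hoxb circles and squares rise together from day 0 to day 2, in Hoxa and Hoxc the circles rise above the squares, and in DNMT_WT the circles stand above the squares in all 4 clusters.

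At the starts of the genes, the 22 members in the promoter table were compared with 17274 genes. The median of the tile holding the start was -0.43 log2 RPKM at day 0, -0.17 at day 1, 0.51 at day 2 and 2.16 in DNMT_WT, against -1.73, -1.76, -1.22 and -0.69 over all genes. The median start of these 22 members thus lay above the median of all starts in every group. Most of the 22 were Hoxa or Hoxd genes, and Hoxc, the lowest cluster at day 0, gave only Hoxc4. The start tile was higher in DNMT_WT than in TET_WT at day 2 in 22 of 22 members (67.3% of all genes), and higher at day 2 than at day 0 in 18 of 22 (64.9%).

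The 4 promoters printed above show how unlike the starts were. The Hoxa7 start tile was high throughout, at 2.86, 2.67 and 2.84 at day 0, at 3.03 in each of the 3 day 2 libraries and at 3.29, 3.32 and 3.44 in DNMT_WT. The Hoxd12 tile was high as well, at 2.12, 2.70 and 2.21 at day 0 and 2.82, 2.97 and 2.68 at day 2, but went to 4.19, 4.34 and 4.15 in DNMT_WT. The Hoxb4 tile was low in TET_WT, at -1.60, -1.80 and -3.56 at day 2 on 8, 5 and 2 reads, and stood at 1.09, 0.17 and 0.91 in DNMT_WT. The Hoxd11 tile was at -4.60, -1.80 and -1.97 and then at -0.45, -0.13 and -0.59. Hoxa13, whose promoter holds the most CG sites of the 22 (35), was at -0.27, -1.12 and -1.24 against -1.07, -0.37 and -0.97, overlapping groups with a difference of means of 0.08. The members held a median of 12 CG sites in these 250 bases and all genes 10. Spearman's rho of the number of CG sites with the start tile's level lay between -0.06 and 0.11 in the 4 groups over the 22 members. With the difference between lines it was -0.08, against 0.39 over all genes.

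Other genes of Hox biology were read in the same fit. TALE cofactors (Pbx, Meis, Pknox and Tgif proteins, which bind DNA beside Hox proteins) were called higher at day 2 than at day 0 in 4 of 10 members and lower in none (median 0.39), with the smallest p for Pknox1 (0.85) and Pbx4 (0.56). ParaHox and Evx genes, the relatives of the Hox genes, gave 3 of 8 (median 0.52), with the smallest p for Cdx1 (1.07) and Pdx1 (0.85). Polycomb genes gave 6 of 23 (median 0.33), with the smallest p for Kdm2b (0.39), and Trithorax and H3K27 demethylase genes 1 of 9 (Men1, 1.34). Retinoic acid signalling genes, which open the clusters in the embryo, gave 8 of 14 (median 0.53), with the smallest p for Rxrg (0.75) and Cyp26a1 (0.48), an enzyme that breaks retinoic acid down. At day 1 no member of these lists was called. Between day 1 and day 2 none of 8 ParaHox and Evx genes was called, where 8.99% of all genes were called higher. The shares for day 2 against day 0, beside 15.3% of all genes, describe the lists and were not tested.

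Between the lines, 7 of 8 ParaHox and Evx genes were higher in DNMT_WT (median 0.95), with Gsx1 at 1.91, Evx2 at 1.71 and Evx1 at 1.01. Evx1 and Evx2 lie next to Hoxa13 and Hoxd13, and of the 16 measured genes next to the clusters 6 were called higher. The Polycomb list gave 10 of 23 (median 0.41), led by Cbx8 (2.36). TALE cofactors gave 3 of 10 higher and 1 lower, with Tgif1 at 1.22 and Pbx2 at 0.86. Trithorax genes gave 4 of 9 and retinoic acid genes 3 of 14 with 1 lower. The Hox genes' 36 of 38 stood beside 14.9% of all genes.

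Marker genes were read in the same comparisons. Of all genes, 15.3% were called higher from day 0 to day 2 and 14.9% between the lines. All 8 naive ES cell genes were higher in 5hmC at day 2 than at day 0 (median 1.88), led by Tbx3 (3.36) and Klf2 (3.02), each a larger difference than that of any Hox gene. Of the formative and primed epiblast genes 3 of 6 rose, led by Etv5 (1.11) and Otx2 (0.69), and of fibroblast and feeder genes 1 of 8 (Thy1, 0.54). Between the lines, 4 of 8 naive, 1 of 6 formative (Sox3, 2.46) and 1 of 8 fibroblast genes (Thy1, 0.71) were higher in DNMT_WT. The fibroblast counts, and the formative count between the lines, lay near the shares of all genes. 5hmC over a marker gene is not its expression, so the labelled cell types could not be checked in this way, and the part of cell composition in the Hox differences was not tested.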

How the data were processed

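HMCP-seq libraries were made from 10 ng of sonicated genomic DNA with a commercial capture kit, per the labels' protocols. The deposited values are log2 RPKM in 2 kb tiles of GRCm38, as computed by the authors. Bowtie2 2.4.1, Trim Galore 0.6.5 and cutadapt 2.3 are named in the submitters' processing notes, and the read total used as the RPKM denominator is not given in the sources used here. Whole reads were recovered from the values, which were whole within 0.1% in 100% of cases, and a tile without reads held the value of 0.9 reads.

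Tiles on chromosomes 1 to 19 and X were used, without the 10% of lowest and 0.1% of highest mean, which left 1183891. A gene value is the mean over its tested tiles (at least 3) in the GRCm38 span plus 2 kb on both sides, for 20717 of 21631 protein-coding genes. Groups were compared with limma 3.58.1 (lmFit and eBayes with a variance trend, R 4.3.3, data.table version 1.17.8), all 11 libraries in 1 fit, two-sided, Benjamini-Hochberg adjusted over all genes or tiles, and called at adjusted p under 0.05. The script was tested on simulated data. Cluster values were compared by exact permutation over libraries, which cannot go below p = 0.1 for 3 against 3 or 0.2 for 2 against 3. Python 3.11.15, pandas 2.3.3, numpy 2.4.6 and matplotlib 3.10.9 were used for promoters and figures.

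The members and lists were chosen with earlier results of these data known. Named with full values were the called members of a comparison (the 20 of smallest p where more), with fewer than 6 calls also the 3 largest differences of each sign, the members of highest and lowest mean in each cluster, the 2 of smallest p of each list, the 3 called tiles of largest gain and of largest loss, and the 2 promoters of highest and the 2 of lowest start tile. Alternatives were other scalings, tile filters, a common floor, equal depth, voom on recovered reads, other gene regions, other fits, a replicate block, other flanks and paralogue groups, and each library left out. In the main fit the libraries were not treated as paired by replicate number. One Hox gene is not reported here, and its tiles were left out of the flanks. The value of 1 gene of another list is not reported here either.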

Additional observations from a re-analysis of the deposited data

How the results depend on the processing

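Every Hox gene called in a comparison kept its direction under all 22 or fewer alternatives that measured it, but the number of calls moved. Between day 0 and day 2 the 25 genes became 14 with median centring and 16 on spans without the 2 kb on both sides, which left fewer genes with enough tiles, and the 69 tiles became 39 with a common floor, 21 at equal depth and 11 without a variance trend. For day 1 against day 0, 10 tiles became 1 with median centring, with a common floor or at equal depth and 0 with only the groups compared or without a variance trend. Between day 1 and day 2 the 19 genes became 5 with median centring or voom, 11 at equal depth and 10 on spans without 2 kb or without a variance trend, and the 37 tiles became 13 with a common floor, 4 at equal depth and 0 without a variance trend. For DNMT_WT against TET_WT the 117 tiles became 52, 8 and 10 with a common floor, at equal depth and without a variance trend. The causes were not tested.

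Leaving out 1 library at a time gave 21 to 26 genes and 53 to 78 tiles for day 2 against day 0, 0 to 1 genes and 5 to 19 tiles for day 1 against day 0, 11 to 23 genes and 24 to 41 tiles for day 2 against day 1, and 33 to 37 genes and 84 to 129 tiles for DNMT_WT. The day 1 differences from day 0 changed sign among these, from -0.109 to 0.264 for clusters minus flanks, from -0.131 to 0.112 for posterior minus anterior and from -0.053 to 0.110 for Hoxc. At equal depth posterior minus anterior changed sign to 0.0042 for day 2 against day 0, 0.0041 for day 1 against day 0 and 0.00011 for day 2 against day 1. For day 1 against day 0 it was 0.011 with groups 1 to 8 as anterior, and quantile normalization turned Hoxb to -0.0044 and Hoxc to -0.093. Quantile normalization also moved the median of all genes from 0.09 to -0.03 for day 1 against day 0 and from 0.00 to 0.13 for day 2 against day 1.

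Of the called genes, 13 of 25 (day 2 against day 0), 2 of 19 (day 2 against day 1) and 30 of 36 (DNMT_WT) were called under every alternative. Deviations correlated over 0.1 in 2 of 15 same-numbered pairs and in 7 of 30 pairs with different numbers, which showed no pairing by number. Within groups of 2 or 3 libraries the deviations are not independent, so this cannot exclude pairing. With the replicate block, 25, 0, 19 and 36 genes and 69, 8, 34 and 117 tiles were called in the 4 comparisons, in the order of the report. The shallowest library had 7342015 reads, and the part of depth in the tile counts was not separated from that of the other settings.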
